A study of Mus musculus with 32 samples.

Results

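The comparison described here sets 4 livers of mice on standard diet that received a dual agonist of the GLP-1 receptor (GLP1R) and the glucagon receptor (GCGR) against 4 livers of mice on standard diet alone. Neither group had surgery. These 8 livers were chosen by their group labels and are 8 of the 32 in the series. All are from male C57/BL6 mice, whose age is not given in the labels. Standard diet was fed for 3 weeks to the control group, and the agonist was given for 2 weeks at a labelled dose of 4.4 mg/kg/day with dosing every 2 days. The labels name neither the compound nor a vehicle for the controls. Each liver gave total RNA for one Agilent one-colour oligonucleotide array, and the labels call the 4 livers of a group biological replicates, so that p-values measure the spread between animals of one experiment. Other groups of the series were fed a methionine-choline deficient (MCD) diet, a model of fatty and inflamed liver, for 3 weeks before sampling or surgery. Some groups were sampled 2 weeks after removal of 70% of the liver, and by the labels their agonist was given before and after this surgery. These other groups enter only where the agonist effect is set beside its effect there.

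Glucagon acts on hepatocytes through GCGR, a receptor that raises cyclic AMP and thereby activates protein kinase A and the transcription factor CREB, whose textbook targets in liver include the genes of gluconeogenesis and amino acid breakdown. GLP-1 acts mainly on the pancreatic islet, brain and gut, and hepatocytes are generally held to carry little or no GLP1R. The liver also makes the acute phase proteins, which rise in blood when interleukin-6 and related cytokines signal through STAT3, and it houses Kupffer cells, the resident macrophages of the sinusoids.

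Expression values are log2 of the array's processed signal minus the 75th percentile of that array, so a value of 0 marks a probe at that percentile and 1 unit is a doubling of signal. The share of probes well above background was 47.1% to 69.1% on the 8 arrays, with standard diet liver 2 standing apart at 69.1%, and no spot was saturated. Rank correlations among the 8 arrays were at least 0.945. Of the 10 tested hepatocyte markers, all 10 were well above background on every one of the 8 arrays. The standard diet arrays lie on one slide and the agonist arrays on another, both in row 1, so the effect of the agonist and a difference between slides cannot be told apart in this comparison. Each scanner file was grouped by the labels of the sample it was deposited under. In the authors' deposited table of processed values, the columns named for standard diet with agonist match the scanner arrays of the MCD diet and the reverse, at baseline and after hepatectomy alike (16 of 32 columns). Which of the 2 records holds the true labels cannot be settled from the files. If the table is right, the arrays called agonist livers here are MCD diet livers without agonist, and the MCD diet and hepatectomy comparisons given last are exchanged likewise; every agonist value below therefore means the libraries labelled so in the scanner files. With its columns set at the arrays they match, the table gave 1194 called genes, of which 562 are among the 1416 of the scanner files. With the columns as named it gave 4193. Both counts come from fits of the 16 baseline arrays only, where the scanner files gave 644. The 1416 come from a fit of all 32 arrays. The number of arrays limits the precision: the median standard error of a log2 difference was 0.320. Unless another setting is named, each standard error and p-value below comes from 1 fit over all 8 groups of the series. These values therefore rest on the spread within groups over all 32 arrays, and not on that of the 8 livers compared alone.

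With agonist, 724 of 21710 tested genes rose (3.33%) and 692 fell (3.19%) at an adjusted p under 0.05 by limma's moderated test, 1416 in all (6.52%). The terms rose and fell refer below to genes that passed this threshold. The arrays of the groups did not overlap for 2452 genes (11.3%), of which 1240 (5.71%) were higher and 1212 (5.58%) lower with agonist. These shares over all genes are the background for the counts in gene lists. Among the called genes, 507 rises and 493 falls exceeded 2-fold, and 1055 of the called genes had no overlap between groups. Over all genes the median log2 difference was -0.01. When arrays were scaled to their median instead of the 75th percentile, the median of all genes moved to 0.17 and the split of called genes moved to 970 rises and 295 falls, so the balance of rises and falls depends on the scaling.

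Among the largest rises were those of the metallothionein genes, which encode small cysteine-rich proteins that bind zinc and copper. Mt2 signal (probe at mm9 chromosome 8, 96697371 to 96697430) was 2.70, 3.85, 1.93 and 3.17 in the standard diet livers and 9.63, 9.46, 7.38 and 5.51 in the agonist livers. Each agonist liver lay above each control, with livers 1 and 2 highest and liver 4 lowest of the agonist group. Mt2 rose by 5.08 ± 0.82 (SE from the fit over all 32 arrays, n = 4 per group), or 33.9-fold (adjusted p = 0.000874). For Mt1 (8, 96704165 to 96704224 on mm9) the control values were 4.28, 5.02, 3.14 and 3.85, and the agonist values 9.50, 10.14, 8.48 and 6.05. The groups did not overlap, and liver 4 was again nearest to the controls. Mt1 rose by 4.47 ± 0.71, or 22.2-fold (adjusted p = 0.000835), and its 2 probes both showed a rise, of 4.47 and 5.89. Of the 11 tested genes of metallothioneins and zinc transport, 3 rose, 0 fell and 8 did not pass, and the median log2 difference of the 11 was 0.26. The third gene that rose was Slc39a10, which encodes a zinc importer, by 1.03 ± 0.30 (adjusted p = 0.0361); its call was lost without standard diet liver 1 or 2 or agonist liver 1, 3 or 4, with adjusted p from 0.0704 to 0.0987. Slc39a14, the zinc importer known from the acute phase response of liver, differed by 0.73 ± 0.26 and missed the threshold (adjusted p = 0.0844).

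The proximal promoters of the metallothionein pair are printed because these genes had 2 of the largest rises and because the metal response element, to which the zinc-sensing factor MTF-1 binds, is known from both genes. The sequences are those of RefSeq (GRCm38.p6, plus strand) from 250 bases before to 50 bases after the annotated start, chr8:94172368-94172667 for Mt2 and chr8:94178839-94179138 for Mt1. Capitals mark each match to the core TGCACNC or TGCGCNC on either strand.
Mt2: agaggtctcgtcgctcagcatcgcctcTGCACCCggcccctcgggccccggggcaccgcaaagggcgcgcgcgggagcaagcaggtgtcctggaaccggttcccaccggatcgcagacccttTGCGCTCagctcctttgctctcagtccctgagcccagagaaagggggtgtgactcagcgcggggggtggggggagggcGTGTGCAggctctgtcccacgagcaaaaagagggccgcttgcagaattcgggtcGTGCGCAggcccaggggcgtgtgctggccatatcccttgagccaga
Mt1: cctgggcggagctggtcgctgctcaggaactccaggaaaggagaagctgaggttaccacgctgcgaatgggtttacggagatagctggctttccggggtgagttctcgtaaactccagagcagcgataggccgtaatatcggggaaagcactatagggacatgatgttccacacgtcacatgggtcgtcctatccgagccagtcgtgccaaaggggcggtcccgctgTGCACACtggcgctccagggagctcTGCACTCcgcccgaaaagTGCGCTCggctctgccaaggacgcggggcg
The Mt2 window holds 4 matches and the Mt1 window 3. The same core occurs in 25.7% of all 32851 promoter windows of this length, which is in 28.2% of genes with a window, and in 8 of the 10 listed metallothionein and zinc transport genes with a window. Among the 3 genes that rose, 2 hold a match. In a simple alignment the windows of Mt1 and Mt2 are identical in 51.6% of columns, gap columns included. How this compares with unrelated windows was not tested.

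Several acute phase genes of the liver rose. The serum amyloid A gene Saa2, whose product is an apolipoprotein of inflamed plasma, had signals of 3.48, 4.91, 3.88 and 4.33 in controls and 8.97, 8.35, 7.81 and 6.97 with agonist. All 4 agonist livers lay above all 4 controls, with liver 1 highest. Saa2 rose by 3.88 ± 0.79 (14.7-fold, adjusted p = 0.00487). Saa1 values were 5.44, 5.86, 4.76 and 5.97 against 10.16, 9.68, 9.35 and 7.72, again without overlap and with liver 4 lowest of the agonist group. Saa1 rose by 3.72 ± 0.77 (13.1-fold, adjusted p = 0.00555); the promoter windows of the pair are 95.3% identical, and cross-hybridisation between the probes of such close paralogs was not tested. Apcs, which encodes serum amyloid P, was 2.12, 2.61, 2.76 and 3.09 in controls and 6.06, 5.11, 5.29 and 4.13 with agonist. The groups did not overlap, and Apcs rose by 2.50 ± 0.43 (5.67-fold, adjusted p = 0.00128). Lcn2, the gene of the iron-siderophore binding protein lipocalin-2, was 1.59, 2.27, 2.12 and 2.41 in controls and 8.79, 7.25, 6.15 and 3.66 with agonist. The agonist livers spread over more than 5 units, the controls over less than 1. Lcn2 rose by 4.36 ± 0.99 (20.6-fold, adjusted p = 0.0101), a call lost without agonist liver 1 (adjusted p = 0.0565). Steap4, a metalloreductase gene, rose by 2.80 ± 0.55 (adjusted p = 0.0035), from 0.52 to 1.64 in controls to 2.68 to 5.52 with agonist.

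These 5 genes were the members that rose among 27 tested acute phase genes, of which 0 fell and 22 did not pass. In 22 of the 27 the difference was positive, with a median of 0.91 against -0.01 over all genes, and in 7 the agonist livers lay wholly above the controls. Leaving out agonist liver 4, which was lowest of its group for Saa1, Saa2, Apcs and Lcn2, raised the count of rises to 10. The median of the 27 genes relative to the control mean was 1.29, 1.05, 0.62 and -0.01 in agonist livers 1 to 4, so the lowest of these lay inside the control range of -0.08 to 0.19. Among 17 tested genes of interleukin-6 family receptors and STAT3 feedback, 5 rose (Cebpd, Osmr, Socs1, Socs2 and Socs3), 0 fell and 15 were positive, with a median of 0.67. Cebpd, a transcription factor gene induced in the acute phase, was 0.75, 2.51, 1.46 and 1.42 in controls and 5.87, 3.38, 3.05 and 2.99 with agonist. Liver 1 stood above the other agonist livers, and without it the rise of 2.29 ± 0.52 (adjusted p = 0.0102) lost its call (adjusted p = 0.0575). Socs3, the feedback inhibitor of STAT3 signalling, rose by 1.56 ± 0.46 (adjusted p = 0.0396), with control values of 2.48 to 4.65 and agonist values of 4.22 to 6.09 that overlap; this call was lost without any one of standard diet livers 2, 3 and 4 or agonist livers 1 and 2 (adjusted p from 0.058 to 0.168). The count of 5 was 0 without agonist liver 1, 2 without standard diet liver 2, and 3 without standard diet liver 3 or 4 or agonist liver 3, and also 0 when the spread was estimated from the groups compared alone.

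**Figure D1:**
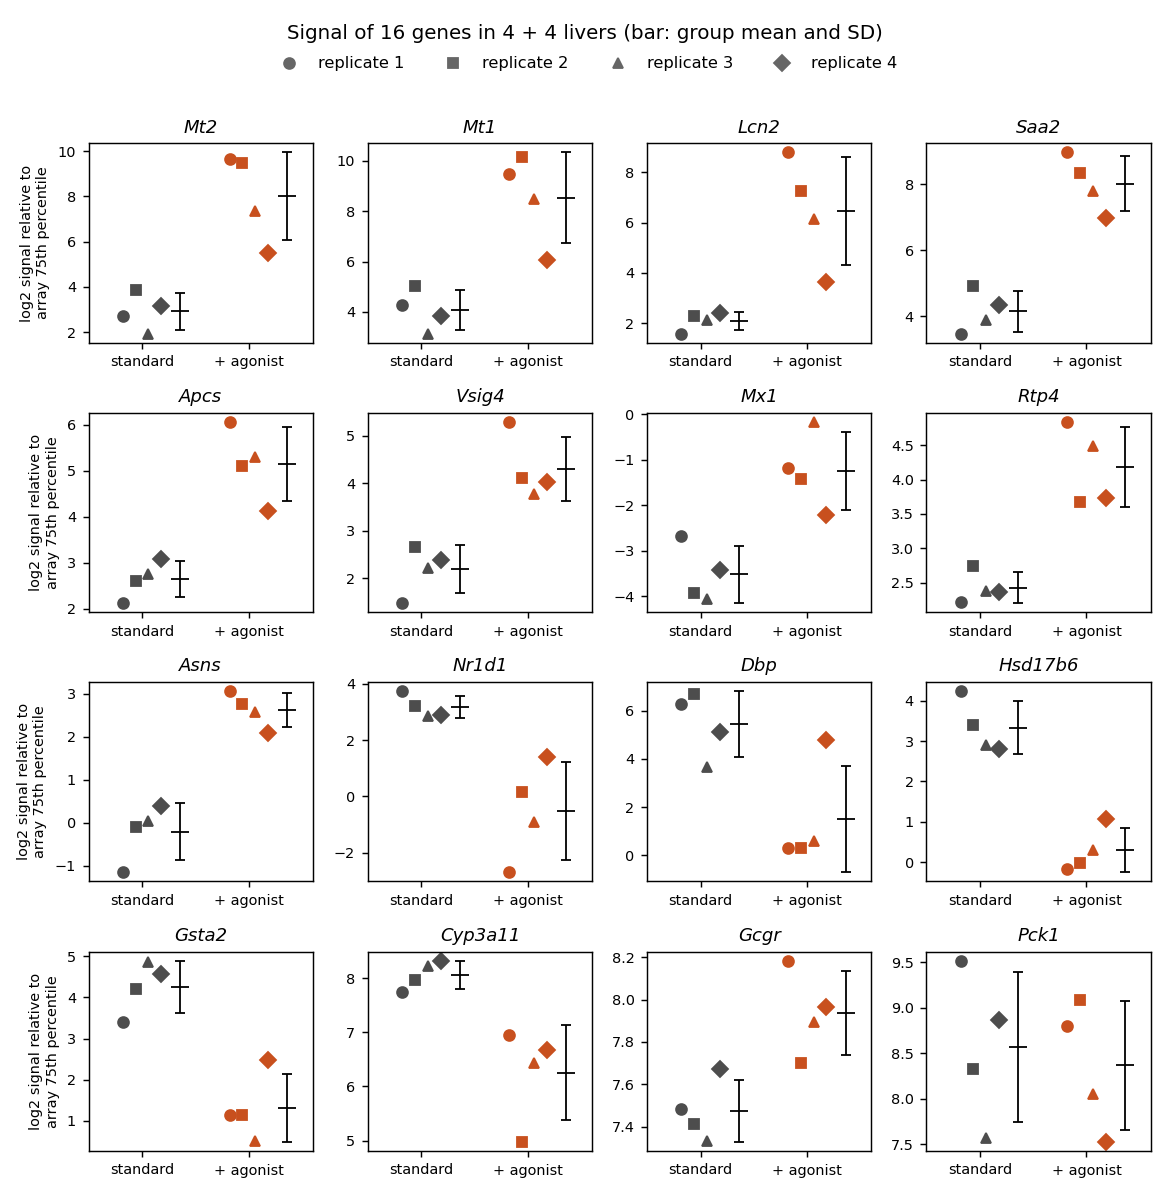
Log2 signal relative to the array's 75th percentile (vertical axes) of 16 genes in the standard diet livers (grey) and the standard diet livers with agonist (orange); symbols mark the replicate, and the black bars are group mean and SD, n = 4. Mt2, Mt1, Lcn2, Saa2 and Apcs are higher in every agonist liver, with replicate 4 lowest of the agonist livers for all 5. Nr1d1, Hsd17b6, Gsta2 and Cyp3a11 are lower in every agonist liver, while Pck1 overlaps between groups.

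Innate immune genes were higher in some agonist livers than in others. Tifa, an adaptor of NF-kB activation, was 2.61, 2.08, 2.03 and 2.32 in controls and 7.17, 5.44, 4.03 and 3.67 with agonist. The groups did not overlap, and Tifa rose by 2.81 ± 0.46 (7.04-fold, adjusted p = 0.000874). Tlr2, a receptor for bacterial lipopeptides, was -0.90, -0.56, -0.66 and -0.85 in controls and 4.71, 1.24, 0.45 and -0.09 with agonist, so that agonist liver 1 stood far above the rest. Tlr2 rose by 2.32 ± 0.70 (adjusted p = 0.0444), and without agonist liver 1 its adjusted p was 0.225; the call was also lost without any one of the 4 controls or agonist liver 2 (0.0532 to 0.0865). Tnfaip3, which encodes the NF-kB inhibitor A20, was between -2.42 and -1.26 in controls and 2.32, 1.92, -0.93 and -1.05 with agonist. It rose by 2.49 ± 0.72 (adjusted p = 0.0378), a call lost without standard diet liver 1, 3 or 4 or agonist liver 1 or 2 (0.0646 to 0.164) and with normexp correction (1.33). In the list of 20 tested NF-kB and Toll-like receptor genes, 3 rose (Tlr2, Tlr4 and Tnfaip3), 1 fell (Tlr5) and 18 were positive, with a median of 0.67. The count of rises was 0 without standard diet liver 1 or 4 or agonist liver 1, 1 without standard diet liver 3 or agonist liver 2, and 7 without agonist liver 4. The 1 fall was lost without standard diet liver 1, 2 or 3 or agonist liver 1 or 2.

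Among 22 tested chemokines and chemokine receptors, 3 rose (Cxcl1, Cxcl9 and Cxcr3), 0 fell and 20 were positive, with a median of 1.18. Cxcl9, a chemokine induced by interferon gamma, was 0.61, 0.45, 0.82 and -0.01 in controls and 2.35, 1.65, 3.02 and 1.81 with agonist. All agonist livers were above all controls, and Cxcl9 rose by 1.74 ± 0.48 (adjusted p = 0.0273), losing its call without standard diet liver 2 or 4 or agonist liver 1 or 3 (0.0541 to 0.107). The count of 3 chemokine genes was 0 without agonist liver 1 and 1 without standard diet liver 4 or agonist liver 3. Prtn3, which encodes the granule protease proteinase 3, was -3.10, -2.98, -5.56 and -3.62 in controls, where 2 of the 4 arrays measured it above background, and 1.34, 1.12, 0.38 and -1.38 with agonist. The groups did not overlap and Prtn3 rose by 4.18 ± 0.68 (adjusted p = 0.000874), or by 2.17 with normexp correction. Elane, the neighbouring neutrophil elastase gene and another granule protease of myeloid precursors, differed by only 0.46 ± 0.39 (adjusted p = 0.533), and Prtn3 was the 1 of 5 tested myeloid precursor granule genes that rose. The neutrophil calprotectin genes S100a8 and S100a9 were higher in every agonist liver but missed the threshold: S100a9 was 0.86, 0.76, 0.92 and 0.55 against 4.4, 2.05, 2.95 and 1.39 (1.93 ± 0.63, adjusted p = 0.0629). S100a8 differed by 1.87 ± 0.65 (adjusted p = 0.0804). Of 12 tested neutrophil markers, 2 rose (Lcn2 and Csf3r), 7 were well above background on all 8 arrays and 1 on none. Lcn2 is also counted among the acute phase genes. Over 18 alternative settings Csf3r lost its call in 10, with differences from 0.33 to 1.02, and Lcn2 lost its call in 1.

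Of 12 tested Kupffer cell markers, 6 rose. Vsig4, a complement receptor of Kupffer cells (mm9 chromosome X, 93442598 to 93442657), was 1.48, 2.67, 2.22 and 2.38 in controls and 5.29, 4.11, 3.78 and 4.02 with agonist. The groups did not overlap, and Vsig4 rose by 2.11 ± 0.45 (4.32-fold, adjusted p = 0.00642). Timd4, the phosphatidylserine receptor of long-lived resident macrophages, was -2.59, -1.72, -2.41 and -2.0 in controls and -0.04, -0.60, -0.33 and -0.75 with agonist. The gap between groups was close to 1 unit, and Timd4 rose by 1.75 ± 0.41 (3.36-fold, adjusted p = 0.0117). Clec4f, a lectin specific to Kupffer cells, was 3.61, 4.19, 3.03 and 3.38 against 5.22, 4.75, 5.62 and 4.55, and rose by 1.49 ± 0.36 (adjusted p = 0.0149), with its call lost without agonist liver 1 (0.0503) or 3 (0.06). The complement component gene C1qa was 1.32, 2.06, 1.35 and 1.29 against 3.59, 3.49, 3.85 and 2.66. C1qa rose by 1.89 ± 0.50 (adjusted p = 0.024), and the call was lost without standard diet liver 1 or 4 or agonist liver 1 or 3 (0.0521 to 0.0788). Adgre1, which encodes the macrophage marker F4/80, rose by 2.09 ± 0.57 (adjusted p = 0.0279; lost without standard diet liver 1 or agonist liver 1 or 3, 0.0642 to 0.114). Cd5l, a macrophage-secreted scavenger protein, rose by 1.44 ± 0.40 (adjusted p = 0.0318; lost without any one of 6 arrays, that is all but standard diet liver 2 and agonist liver 4, 0.0588 to 0.0981).

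These were the 6 rises among 12 tested Kupffer cell markers. The other 6 did not pass, but all 12 differences were positive, the median was 1.46, and in 9 of the 12 the agonist livers lay wholly above the controls. Over all genes 3.33% rose and 5.71% were higher without overlap. The median of the 12 relative to the control mean was 1.59, 1.18, 1.83 and 1.00 in the agonist livers and between -0.26 and 0.37 in the controls, so these medians did not overlap. In RNA of whole liver, more cells of a type and more RNA per cell cannot be told apart. The count of 6 was 3 without standard diet liver 1 and 2 without agonist liver 1 or agonist liver 3, and 3 with normexp background correction. With that correction Timd4 differed by 1.05 and Clec4f by 0.97, neither passing.

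Genes of antigen presentation and of other leukocytes moved less evenly. Ctss, the cathepsin that trims the MHC class II invariant chain, was 1.23, 1.84, 1.67 and 1.65 in controls and 4.49, 3.59, 5.04 and 3.48 with agonist. All agonist values exceeded all control values, and Ctss rose by 2.55 ± 0.54 (5.87-fold, adjusted p = 0.00663). The class II chain gene H2-Aa was 0.52, 0.37, -0.81 and -0.16 against 0.84, 0.97, 2.40 and 1.14, and rose by 1.36 ± 0.40 (adjusted p = 0.0402). Its agonist liver 3 was well above the other agonist livers, and the call was lost without standard diet liver 3 or 4 or agonist liver 1 or 3 (0.0568 to 0.163). Of 12 tested MHC class II and antigen presentation genes, 4 rose (Ctss, H2-Aa, H2-Ab1 and H2-DMa), 0 fell and 10 were positive, with a median of 0.89. The 4 became 2 without standard diet liver 1 or 3 or agonist liver 4, and 1 without standard diet liver 4 or agonist liver 3.

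For markers of other cell types, the all-gene shares to compare are 3.33% rises, 3.19% falls and 5.71% higher without overlap. Among 14 recruited macrophage and monocyte genes, 2 rose (Cd9 and Chil3), 13 were positive and 8 were higher without overlap, with a median of 0.97. The 8 of 14 lie above the all-gene share. Chil3, a chitinase-like protein of activated macrophages and neutrophils, was -3.94, -4.93, -4.36 and -4.59 in controls and 1.66, -0.96, -0.92 and -3.11 with agonist. On 2 control arrays it was not well above background. Chil3 rose by 3.62 ± 1.13 at an adjusted p of 0.0496, and leaving out any one array but agonist liver 4 ended the call (0.0703 to 0.196), as did normexp correction (1.83). The count of 2 was 1 without standard diet liver 2 or 3 and 0 without any one of standard diet livers 1 and 4 and agonist livers 1, 2 and 3. T and NK cell genes had 2 rises and 1 fall of 12, B and plasma cell genes 0 rises and 1 fall of 9 with a median of -0.75, and dendritic cell genes 1 rise and 1 fall of 8. Neither rises nor falls were called among 15 stellate cell, 10 cholangiocyte, 13 pancreatic acinar, 8 erythroid, 5 platelet and 10 hepatocyte markers, of which the erythroid genes had a median of -0.90 and the hepatocyte genes one of -0.03. In the sinusoidal endothelial list, 1 of 14 genes rose, Lyve1, with a median of -0.18.

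Several genes that interferons induce rose with agonist. Mx1, an antiviral GTPase, was -2.66, -3.92, -4.06 and -3.42 in controls and -1.17, -1.42, -0.16 and -2.22 with agonist. The groups did not overlap, agonist liver 3 was highest, and Mx1 rose by 2.27 ± 0.47 (adjusted p = 0.00565). Only 1 of the 4 control arrays was well above background for Mx1, and with normexp correction its rise was 1.18. Rtp4, a receptor-transporting protein induced by type I interferon, was 2.22, 2.75, 2.38 and 2.37 in controls and 4.84, 3.67, 4.49 and 3.73 with agonist. Rtp4 rose by 1.75 ± 0.35 (3.36-fold, adjusted p = 0.00383), again without overlap. Ifi47, an interferon gamma-induced GTPase, was 2.63, 2.73, 2.96 and 3.83 in controls and 5.92, 3.74, 6.54 and 4.30 with agonist. Here agonist liver 2 fell inside the control range, and Ifi47 rose by 2.09 ± 0.43 (4.26-fold, adjusted p = 0.00487). The immunity-related GTPase gene Irgm2 was 2.82, 3.79, 3.17 and 3.22 against 4.33, 4.08, 5.58 and 4.36, a rise of 1.34 ± 0.35 (adjusted p = 0.0223) that was lost without standard diet liver 1 (0.065) or agonist liver 3 (0.109). Gbp3, a guanylate-binding protein gene, was 0.03, 0.41, 0.12 and -1.64 against 1.66, 0.92, 2.66 and 0.85. It rose by 1.79 ± 0.48 (adjusted p = 0.0254), with its call lost without standard diet liver 4 or agonist liver 1 or 3 (0.0732 to 0.113).

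Of 40 tested interferon-stimulated genes, 12 rose, 0 fell and 28 did not pass, against 3.33% rises among all genes. The difference was positive in 39 of the 40, with a median of 0.96, and 16 were higher in every agonist liver than in any control. The median of the 40 relative to the control mean was 0.97, 0.69, 1.52 and 0.53 in agonist livers 1 to 4 and from -0.20 to 0.21 in controls. The 12 rises became 6, 7 and 5 without standard diet livers 1, 2 and 4, and 5 and 4 without agonist livers 1 and 3. With the spread estimated from the groups compared alone there were 3, and with no filter on dim probes 6.

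The promoters of Irgm2 and Gbp3 are printed as the genes with values above that hold the interferon-stimulated response element core. The windows are RefSeq GRCm38.p6, plus strand, chr11:58214727-58215026 for Irgm2 and chr3:142559794-142560093 for Gbp3, and capitals mark matches on either strand to GAAA, any 2 bases and GAAA again, which overlap each other in Gbp3.
Irgm2: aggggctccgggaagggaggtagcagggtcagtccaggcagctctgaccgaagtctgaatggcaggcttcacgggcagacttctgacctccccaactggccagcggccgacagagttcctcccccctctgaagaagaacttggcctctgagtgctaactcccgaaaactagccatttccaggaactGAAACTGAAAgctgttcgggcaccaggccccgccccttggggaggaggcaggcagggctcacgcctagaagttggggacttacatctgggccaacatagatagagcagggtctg
Gbp3: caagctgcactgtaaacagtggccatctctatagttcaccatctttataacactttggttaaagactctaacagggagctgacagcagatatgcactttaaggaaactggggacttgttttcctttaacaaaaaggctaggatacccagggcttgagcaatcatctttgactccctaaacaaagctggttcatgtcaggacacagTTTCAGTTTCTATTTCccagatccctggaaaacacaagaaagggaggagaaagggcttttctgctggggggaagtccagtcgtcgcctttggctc
The Irgm2 window holds 1 match and the Gbp3 window 2. A further Gbp3 window, from another annotated start, holds none. Of all genes with a window 3.99% hold this core (3.44% of windows), and 18 of the 31 listed interferon-stimulated genes with a window hold it, among them 5 of the 8 that rose and have a window. Of the acute phase genes, 6 of 22 with a window hold the STAT palindrome TTCNNNGAA, against 9.55% of all genes with a window. Apcs and Steap4 are the 2 of 5 risen acute phase genes that do. Of the interleukin-6 family receptor and STAT3 feedback genes with a window, 2 of 15 hold this palindrome.

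**Figure D2:**
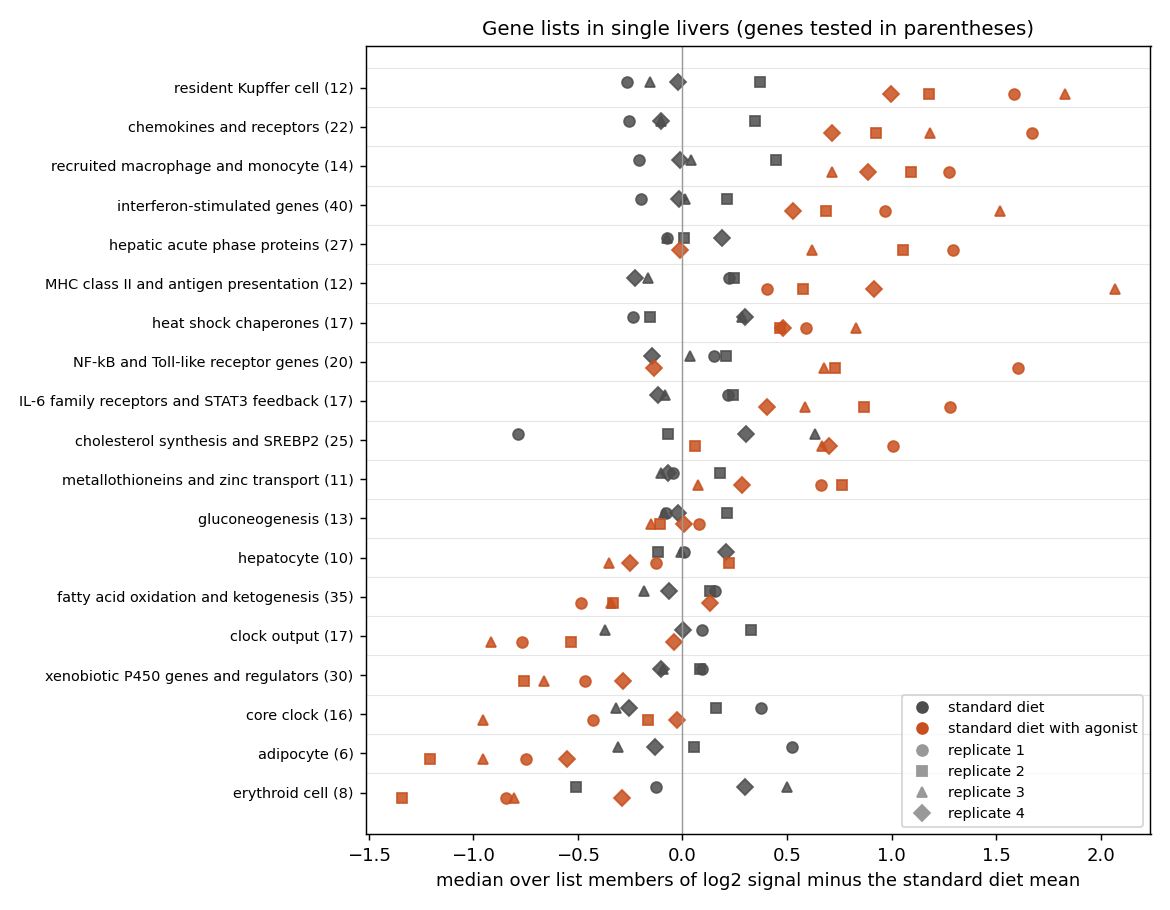
For 19 gene lists (vertical axis, tested genes in parentheses), the median over members of log2 signal minus the standard diet mean (horizontal axis) in single standard diet livers (grey) and agonist livers (orange); symbols mark the replicate. The Kupffer cell medians are 1.00 to 1.83 in the agonist livers and -0.26 to 0.37 in the controls. Replicate 1 is the highest agonist liver for the acute phase list at 1.29, and replicate 3 for the interferon list at 1.52.

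Genes of the circadian clock were among the largest falls. Nr1d1, which encodes the transcriptional repressor REV-ERB alpha (mm9 chromosome 11, 98630526 to 98631028), was 3.74, 3.21, 2.86 and 2.90 in controls and -2.71, 0.16, -0.90 and 1.40 with agonist. The controls lay within 1 unit of each other, the agonist livers within about 4, and the groups did not overlap. Nr1d1 fell by 3.69 on the log2 scale (SE 0.47, 12.9-fold lower, adjusted p = 0.00014). Arntl (Bmal1), the activator that REV-ERB alpha represses, was -1.41, -1.09, 0.42 and 0.09 in controls and 2.16, 1.92, 2.80 and 0.73 with agonist. Arntl rose by 2.40 ± 0.64 (adjusted p = 0.0239), a call lost without standard diet liver 1 or 2 or agonist liver 1 or 3 (0.064 to 0.0878). Dbp, a clock-driven transcription factor of the PAR bZIP family, was 6.30, 6.70, 3.67 and 5.11 in controls and 0.31, 0.29, 0.57 and 4.80 with agonist. Agonist liver 4 lay inside the control range while the other agonist livers were far below it. Dbp fell by 3.95 on the log2 scale (SE 0.83, adjusted p = 0.00637). Its relative Hlf was 2.88, 3.38, 2.20 and 2.52 against 0.62, 1.65, 1.21 and 1.45, without overlap, and fell by 1.51 (SE 0.25, adjusted p = 0.000874).

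Of 16 tested core clock genes, 1 rose (Arntl), 3 fell (Nr1d1, Bhlhe40 and Bhlhe41, the last not well above background on any agonist array) and 12 did not pass, against 3.19% falls among all genes. The median of the 16 was -0.57. The period genes did not pass: Per1 differed by 0.50 ± 0.54 (adjusted p = 0.631) and Per2 by -1.08 ± 0.53 (adjusted p = 0.232). The 3 falls became 1 without any one of standard diet livers 1 and 2 and agonist livers 1 and 3, and the 1 rise became 0 without any one of these. In the clock output list of 17 genes, 3 fell (Dbp, Hlf and Tef) and 1 rose (Tubb2a); the falls became 0 with the spread of the groups compared alone, and the rise became 0 without standard diet liver 1, 2 or 4 or agonist liver 1 and 2 without standard diet liver 3. Nfil3, a repressor that acts on the same promoter elements as Dbp, was 3.36, 2.55, 2.37 and 3.35 in controls and 5.34, 4.87, 4.59 and 2.70 with agonist. In 3 of the 4 agonist livers it was above every control, and it missed the threshold at 1.47 ± 0.47 (adjusted p = 0.0558). For Nr1d1, Dbp, Arntl and Nfil3, agonist liver 4 was the nearest to the controls. The labels used here give no time of day for sampling. The E-box CACGTG, through which the clock activators bind, occurs in 4 of 13 core clock promoters with a window. It occurs in 2 of 15 clock output promoters with a window and in 8.09% of all genes with a window. Of the clock genes that fell, Bhlhe41 and Tef hold these letters, while the windows of Nr1d1, Dbp and Hlf do not.

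Several genes of drug and steroid metabolism fell. Hsd17b6, a hydroxysteroid dehydrogenase of liver, was 4.23, 3.40, 2.91 and 2.80 in controls and -0.17, -0.02, 0.30 and 1.06 with agonist. The groups were separated by more than 1 unit, and Hsd17b6 fell by 3.04 (SE 0.55, 8.23-fold lower, adjusted p = 0.00175). The glutathione transferase gene Gsta2 was 3.41, 4.21, 4.87 and 4.56 against 1.15, 1.14, 0.51 and 2.48. Gsta2 fell by 2.94 (SE 0.57, 7.68-fold lower, adjusted p = 0.00322), and Gstt2, of another transferase class, fell by 1.72 (SE 0.30, adjusted p = 0.00134), from 4.17 to 4.86 in controls to 2.44 to 3.27. Nr1i3 encodes CAR, the nuclear receptor that drives Cyp2b and other detoxification genes. It was 5.31, 5.71, 4.87 and 4.80 in controls and 3.14, 4.20, 3.59 and 3.88 with agonist. Without overlap, Nr1i3 fell by 1.47 (SE 0.30, 2.77-fold lower, adjusted p = 0.00544). Cyp2b10, its classic target, was 3.24, 3.77, -0.47 and 2.85 in controls and 2.16, -1.06, -1.03 and -0.60 with agonist. Each group held 1 liver apart from the rest, control 3 low and agonist 1 high. Cyp2b10 fell by 2.48 (SE 0.61, adjusted p = 0.017), with the call lost without standard diet liver 1 or 2 or agonist liver 3 (0.0545 to 0.0658).

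Cyp3a11, the main mouse CYP3A drug oxidase, was 7.74, 7.96, 8.22 and 8.32 in controls and 6.96, 4.98, 6.43 and 6.67 with agonist. Each agonist liver was below each control, and Cyp3a11 fell by 1.81 (SE 0.40, 3.5-fold lower, adjusted p = 0.00881). Cyp3a16 fell by 2.44 (SE 0.45, adjusted p = 0.00227), from 4.94 to 6.37 in controls to 1.53 to 4.33. Cyp3a41b, which is not in the drug metabolism list, fell by 2.46 (SE 0.37, adjusted p = 0.000545), with 3.64, 2.76, 3.98 and 3.70 in controls and 0.34, 0.65, 2.06 and 1.18 with agonist. Cyp2a4, a steroid hydroxylase, was 7.83, 7.57, 7.53 and 7.64 in controls and 6.76, 5.75 and 4.89 in agonist livers 1 to 3, its spot in liver 4 being left out as an outlier. On these 7 arrays Cyp2a4 fell by 1.84 (SE 0.31, adjusted p = 0.00128). The Cyp3a, Cyp2b and Cyp2a genes have close copies, so a probe of one may also bind RNA of another. Of 30 tested genes of xenobiotic P450 enzymes and their regulators, 6 fell (Cyp3a11, Cyp3a16, Cyp2b10, Cyp2a4, Cyp1a2 and Nr1i3), 2 rose (Ahr and Cyp2b13) and 22 did not pass, with a median of -0.53. The list medians were -0.47, -0.76, -0.66 and -0.29 in the agonist livers. The 6 falls became 0 with the spread of the groups compared alone. The 2 rises became 1 without standard diet liver 2, 3 or 4 or agonist liver 2 and 0 without standard diet liver 1 or agonist liver 1 or 3. Among 30 conjugation genes 3 fell (Gsta2, Gstt2 and Gstp1) and 0 rose, and among 19 steroid dehydrogenases and reductases 2 fell (Hsd17b6 and Hsd17b2) and 0 rose.

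The coactivator PGC-1 beta, a partner of nuclear receptors in mitochondrial and lipid metabolism, is encoded by Ppargc1b. Its signal was 0.74, -1.43, -1.17 and -2.04 in controls and -5.76, -5.03, -3.87 and -3.71 with agonist. The groups were well apart, and Ppargc1b fell by 3.62 (SE 0.54, adjusted p = 0.000545). Only 2 of the 4 agonist arrays were well above background for it. The difference was -1.72 with normexp correction, where it passed. It was -1.69 in the authors' deposited table at matching arrays, fitted on the 16 baseline arrays, where it did not pass. Ppargc1a, the cAMP-inducible PGC-1 alpha gene, differed by -0.45 ± 0.48 (adjusted p = 0.629) with overlapping values. Of 8 tested genes of PGC-1 coactivators and partners, 2 fell (Ppargc1b and Esrra), 0 rose and the median was -0.41. The 45 tested respiratory chain subunits had 1 rise, 1 fall and a median of -0.04.

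The receptors of the agonist did not pass. Gcgr was 7.48, 7.41, 7.33 and 7.67 in controls and 8.18, 7.70, 7.89 and 7.96 with agonist. Although every agonist liver was above every control, the difference of 0.46 ± 0.24 missed the threshold (adjusted p = 0.265). Glp1r was well above background on only 2 control arrays and 1 agonist array, with values of -2.85, -2.37, -4.64 and -3.35 against -3.84, -4.11, -3.75 and -3.52 (-0.50 ± 0.48, adjusted p = 0.585). Of the 24 tested genes of the receptors and cyclic AMP signalling, 0 rose and 0 fell, and the median was -0.17.

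Among 18 tested cAMP and glucagon target genes, 4 rose (Crem, Igfbp1, Klf15 and Slc38a2), 1 fell (Cited2) and 13 did not pass, with a median of 0.05. Crem, whose inducible product ICER limits cAMP-driven transcription, was 1.51, 1.65, 1.92 and 1.28 in controls and 2.91, 2.84, 3.44 and 2.25 with agonist. Every agonist value was above every control value, and Crem rose by 1.27 ± 0.32 (2.41-fold, adjusted p = 0.0187), with the call lost without agonist liver 1 (0.055) or 3 (0.0785). Igfbp1, a secreted binding protein of insulin-like growth factors that insulin represses, was 5.24, 6.37, 7.36 and 7.87 against 9.47, 8.05, 8.30 and 7.34. These values overlap, and the rise of 1.58 ± 0.42 (adjusted p = 0.0241) was lost without standard diet liver 1 or 2 or agonist liver 1 or 3 (0.0591 to 0.124). Klf15, a transcription factor of amino acid breakdown in fasting, rose by 0.89 ± 0.24 (adjusted p = 0.0268; lost without standard diet liver 1 or agonist liver 1 or 3, 0.0577 to 0.104). Cited2, a coactivator that glucagon induces in hepatocytes, was 3.65, 3.45, 3.08 and 2.81 in controls and 0.46, 2.24, 1.28 and 2.07 with agonist, and fell by 1.73 (SE 0.33, 3.33-fold lower, adjusted p = 0.00273). The 4 rises became 1, 2, 0 and 1 without standard diet livers 1 and 2 and agonist livers 1 and 3, and both directions became 0 with the spread of the groups compared alone.

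The gluconeogenic genes did not pass. Pck1, the cytosolic phosphoenolpyruvate carboxykinase gene, was 9.52, 8.32, 7.57 and 8.86 in controls and 8.80, 9.09, 8.05 and 7.53 with agonist. The values interleave, the difference was -0.20 ± 0.34 (adjusted p = 0.783), and its sign turned with normexp background correction and without standard diet liver 1 or agonist liver 4 (0.23, 0.12 and 0.08). G6pc, the glucose-6-phosphatase gene, was 7.13, 7.13, 8.77 and 8.84 against 7.60, 7.86, 7.82 and 7.42 (-0.29 ± 0.83, adjusted p = 0.88). Across 13 tested gluconeogenic genes 0 rose, 0 fell and the median was -0.07. Of 39 genes that act in the urea cycle or break down amino acids, 1 rose, 2 fell (Prodh2 and Slc38a3) and 8 were lower without overlap, with a median of -0.30. The all-gene shares were 3.33% rises, 3.19% falls and 5.58% lower without overlap. The called shares of this list are thus near the background, while its share lower without overlap, 8 of 39, is above it. These counts of amino acid genes were unstable: leaving out any one of the 8 arrays except agonist liver 4 made the falls 1, and the rise was lost in all of these but without standard diet liver 4. Asns, the asparagine synthetase gene of the amino acid stress response (mm9 chromosome 6, 7625171 to 7625228), was -1.15, -0.11, 0.04 and 0.40 in controls and 3.06, 2.76, 2.58 and 2.10 with agonist. The agonist livers lay within 1 unit of each other and well above the controls. Asns rose by 2.83 ± 0.41 (7.13-fold, adjusted p = 0.000392) and was the 1 rise among 18 integrated stress response genes, whose median was 0.32. Fgf21, a hepatokine of the same response and a known target of glucagon, was 0.21, -0.12, -0.11 and -0.30 in controls but -2.58, 2.62, -0.57 and 2.96 with agonist. Agonist livers 2 and 4 were thus above and livers 1 and 3 below every control, and the difference of 0.68 ± 0.90 had an adjusted p of 0.708.

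Lipid genes gave few calls. Srebf1, which encodes the lipogenic factor SREBP-1, was 2.56, 3.48, 2.54 and 2.78 in controls and 1.01, 0.98, 1.84 and 1.64 with agonist. Without overlap, Srebf1 fell by 1.47 (SE 0.36, 2.77-fold lower, adjusted p = 0.0167), a call lost without standard diet liver 2 (0.0567) or agonist liver 1 (0.0628) and with normexp correction (-0.98). It was the 1 fall among 25 lipogenic genes, of which 0 rose and 17 were positive (median 0.11). This count was 0 without standard diet liver 2 or agonist liver 1, 2 without agonist liver 2 and 3 without agonist liver 4. Among 25 cholesterol synthesis genes 0 rose and 0 fell, and 21 were positive with a median of 0.59. The list's liver medians overlapped, at -0.79 to 0.64 in controls and 0.06 to 1.01 with agonist. Without overlap 2 of the 25 were higher, against 5.71% of all genes. Acaa1b, a peroxisomal thiolase gene, was 8.02, 7.62, 8.06 and 7.97 in controls and 5.65, 6.06, 4.56 and 6.84 with agonist, and fell by 2.14 (SE 0.44, 4.41-fold lower, adjusted p = 0.00547). Of 35 fatty acid oxidation and ketogenesis genes, 2 fell (Acaa1b and Acot1), 1 rose (Etfdh) and 8 were positive, with a median of -0.32, the calls being near the all-gene shares of 3.19% and 3.33%. The 2 falls became 1 without agonist liver 1 or 3, and the 1 rise was 0 without any one of standard diet livers 1, 3 and 4 and agonist livers 1, 3 and 4. Apoa4, an apolipoprotein of triglyceride-rich particles, was 2.46, 1.28, 2.41 and 2.38 in controls and 3.31, 4.75, 4.17 and 3.71 with agonist. All agonist livers were higher, and Apoa4 rose by 1.85 ± 0.42 (3.62-fold, adjusted p = 0.0103).

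Abcc3, a basolateral exporter of bile acid and drug conjugates, was 6.53, 6.47, 5.69 and 5.97 in controls and 4.61, 4.67, 4.34 and 4.81 with agonist. The agonist livers lay within 0.5 of each other and below every control, and Abcc3 fell by 1.56 (SE 0.27, 2.94-fold lower, adjusted p = 0.00128). In the list of 24 bile acid synthesis and transport genes, 2 fell (Abcc3 and Slco1a4), 0 rose and 4 were positive, with a median of -0.31. Cyp7a1, the rate-limiting enzyme of bile acid synthesis, was 0.46, 2.15, 3.28 and 2.39 against 1.31, -1.32, 0.89 and 0.82, a difference of -1.64 ± 0.89 that did not pass (adjusted p = 0.283). Of 10 listed adipocyte markers, 4 (Adipoq, Plin1, Lep and Retn) were not tested. The 6 tested were all lower with agonist, 3 of them without overlap (5.58% of all genes), with a median of -0.67. Among these Pparg, the adipogenic nuclear receptor gene, fell by 0.84 (SE 0.22, adjusted p = 0.0237), and its call was lost without standard diet liver 4 or agonist liver 1 or 2 (0.0511 to 0.0556) and with scaling to the array median.

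Other large changes fell outside these groups. Apol10b, an apolipoprotein L gene, was -4.0, -3.58, -3.93 and -3.91 in controls and 2.20, 0.01, -0.49 and -2.46 with agonist. The controls agreed to within 0.5 while the agonist livers spanned more than 4, and Apol10b rose by 3.67 ± 0.75 (adjusted p = 0.00495), or by 1.6 with normexp correction. For Pip5k1a, a phosphoinositide kinase gene, the brightest probe read 1.72, 1.74, 1.05 and 1.48 against 9.23, 7.79, 4.87 and 2.99, a rise of 4.72 ± 1.01 (26.4-fold, adjusted p = 0.00697). Its 3 probes disagreed, the lowest giving -0.06 and their mean a rise of 1.64, so the value belongs to one probe and not to the gene as a whole. F9, the clotting factor IX gene, was 3.28, 3.35, 3.51 and 3.08 in controls and 4.68, 4.39, 5.01 and 4.34 with agonist, an even rise of 1.30 ± 0.23 (2.46-fold, adjusted p = 0.00134). Scn3b, a sodium channel subunit gene, was -0.63, 0.39, 0.17 and 0.64 against -3.49, -2.26, -3.18 and -2.98, and fell by 3.12 (SE 0.49, 8.7-fold lower, adjusted p = 0.00066). Heat shock chaperones had 4 rises among 17 tested genes (Hsp90aa1, Hspa4l, Hspb8 and Dnajb1) and 0 falls, with a median of 0.71. Hsp90aa1, the inducible HSP90 gene, rose by 1.20 ± 0.29 (adjusted p = 0.0156; lost without standard diet liver 1 or agonist liver 1 or 3, 0.0524 to 0.0626), and the 4 became 1 without standard diet liver 2 or agonist liver 3 and 0 without agonist liver 1.

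For 3 of the large falls no agonist array was well above background, so only a bound can be given, namely the control mean against a floor for the agonist group. This floor is the lowest signal that any probe above background had on an array, or the gene's own signal where that was higher, averaged over the 4 arrays. Mrgprg, an orphan receptor gene, was at least 9.08-fold lower with agonist (adjusted p = 0.00133), from -2.40, -1.56, -1.43 and -1.40 in controls. Cbx8, a Polycomb protein gene, was at least 6.24-fold lower (adjusted p = 0.0015). Rprd2, an RNA polymerase II domain-binding protein gene, was at least 5.5-fold lower (adjusted p = 0.000217). For each of these 3 genes all 4 control arrays were above background and all 4 agonist values lay below the controls. With normexp correction their differences were smaller, -1.36 for Mrgprg, -1.03 for Cbx8 and -1.03 for Rprd2, and still passed. The clock repressor gene Bhlhe41, with 3 of 4 control arrays well above background, was bounded in the same way at 3.42-fold or more lower (adjusted p = 0.0308). Its call was lost without standard diet liver 1 or 2 or agonist liver 1, 3 or 4 (0.0539 to 0.108). Igkc, the immunoglobulin kappa constant gene, was at least 1.14-fold lower by this bound (adjusted p = 0.0231), a call lost without standard diet liver 3 or agonist liver 3 or 4 (0.0503 to 0.0634). Only 1 of its 4 control arrays was well above background, so both groups were near the floor and the bound says little. Over the 18 alternative settings the Igkc difference ran from -1.725 to -0.14, and the call was lost in 7.

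The agonist livers did not move to the same extent. Among the 724 genes that rose, the agonist liver farthest above the control mean was liver 3 in 41.7% and liver 1 in 40.6%, but liver 4 in 10.5% and liver 2 in 7.18%. For the falls with all arrays measured (688), the shares farthest below were 36.8%, 16%, 37.9% and 9.3% for livers 1 to 4. Over all 21612 genes with a value on all arrays, the corresponding shares were 28.7%, 19.4%, 31.4% and 20.5%. Since the called genes were chosen on these same arrays, their shares are a description and carry no test. The extent also differed between gene groups: liver 1 led for Lcn2, Cebpd, Tlr2, Tifa and Nr1d1, and liver 3 for Mx1, Ifi47, H2-Aa, Ctss and Clec4f. Within groups the median SD over genes was 0.456 for standard diet and 0.428 with agonist.

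The same agonist was also given on the MCD diet, where its effect is measured between other livers but across the same 2 slides, in row 2. There 2897 genes were called (13.3%), 1947 higher (8.97%) and 950 lower (4.38%). Of the 1416 genes called on standard diet, 222 were also called on the MCD diet, which is 15.7% of the one list and 7.66% of the other; 71 moved in the same direction and 151 in the opposite one. The sign on the MCD diet was the same for 43.8% of the 1416 genes and for 48.4% of all genes. The agonist effect differed between diets for 2400 genes (11.1%), being more positive on the MCD diet for 1328 (6.12%) and more negative for 1072 (4.94%), an interaction in which an additive slide effect cancels. Kupffer cell markers went opposite ways: Vsig4 changed by -1.93 ± 0.45 on the MCD diet (adjusted p = 0.00616), and the 12 markers had a median of -1.28 with 6 falls, 9 of the 12 differing between diets. The interferon list had a median of -0.65 on the MCD diet with 5 falls and 0 rises, and 18 of its 40 genes differed between diets. The acute phase list had a median of 0.17 there with 1 rise, and 5 of its 27 genes differed between diets. For Mt2 the MCD diet value was 0.86 ± 0.89 and for Nr1d1 0.49 ± 0.47, and neither passed. The lists and genes set side by side here were chosen with earlier results of these data known. The standard diet arrays also enter each difference between diets, which the choice of genes therefore favours.

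After hepatectomy the agonist effect on standard diet was measured within one slide, between its rows, and 2 genes were called (0.00921%), Cyp2b13 and Cyp2b9. Cyp2b13 rose by 2.63 ± 0.30 there (adjusted p = 2.93e-05). At baseline the same gene was at least 1.18-fold higher (adjusted p = 0.0293), a call lost without standard diet liver 1 or 2 or agonist liver 1, 2 or 3 (0.0547 to 0.13) and with normexp correction (a difference of 0.11). The baseline and the later effect differed for 59 genes (0.272%), more positive later for 33 (0.152%) and more negative for 26 (0.12%). The slide difference of the baseline comparison remains in this one, and the slides after hepatectomy were read with another scanner than those at baseline. Agonist treatment also lasted longer in the later groups, being given before and after the hepatectomy. The part of treatment length in the difference was not tested. For the 1416 the later sign was the same in 49.5%, against 50.6% of all genes. Saa2 changed by -1.80 ± 0.79 after hepatectomy and Nr1d1 by 0.67 ± 0.47, neither of which passed, and both differed from baseline. Both genes were named for their large baseline changes, and the baseline arrays enter that difference. After hepatectomy the median of the Kupffer list was -0.12, that of the interferon list -0.31, that of the acute phase list 0.10 and that of the P450 list 0.23.

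**Figure D3:**
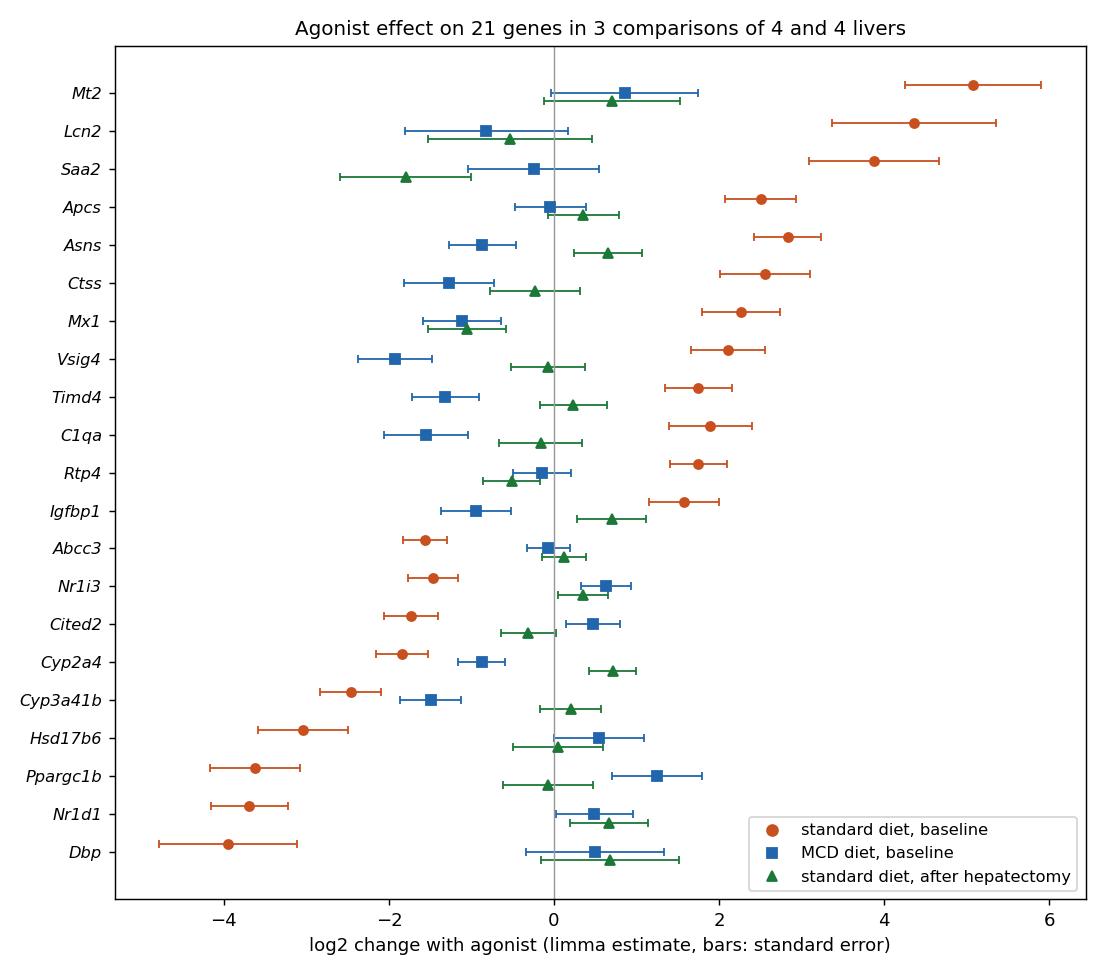
Log2 change with agonist (horizontal axis, limma estimate with standard error bars) of 21 genes at baseline on standard diet (orange circles), at baseline on MCD diet (blue squares) and after hepatectomy on standard diet (green triangles), 4 livers per group. At baseline on standard diet the values run from 5.08 for Mt2 to -3.95 for Dbp, while Vsig4, Timd4 and C1qa lie on opposite sides of 0 on the 2 diets.

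How many genes were called depended on which arrays entered. Without agonist liver 1 there were 490 called genes and without agonist liver 3 there were 611, of which 460 and 569 were shared with the 1416. Leaving out standard diet liver 1 left 938, and the other single omissions gave counts up to 1496. Normexp background correction gave 1748, of which 743 were shared. With the spread estimated from the 8 arrays compared alone, 264 genes were called, 234 of them shared. Of 120 called genes that the naming rule allows, 25 kept their call under all 18 alternatives, the deposited table with columns as named not being one of them, and 0 changed direction under any. Between probes, direction was less uniform: of all 412 called genes with more than 1 tested probe, 289 had all probes in 1 direction. Calls were lost for 38 of the 120 with normexp correction and for 83 with the groups compared alone. The 25 include Mt1, Mt2, Saa1, Saa2, Apcs, Asns, Prtn3, Ctss, Mx1, Rtp4, F9, Nr1d1, Hsd17b6, Gsta2, Gstt2, Cyp3a41b, Abcc3, Apol10b and Scn3b.

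**Figure D4:**
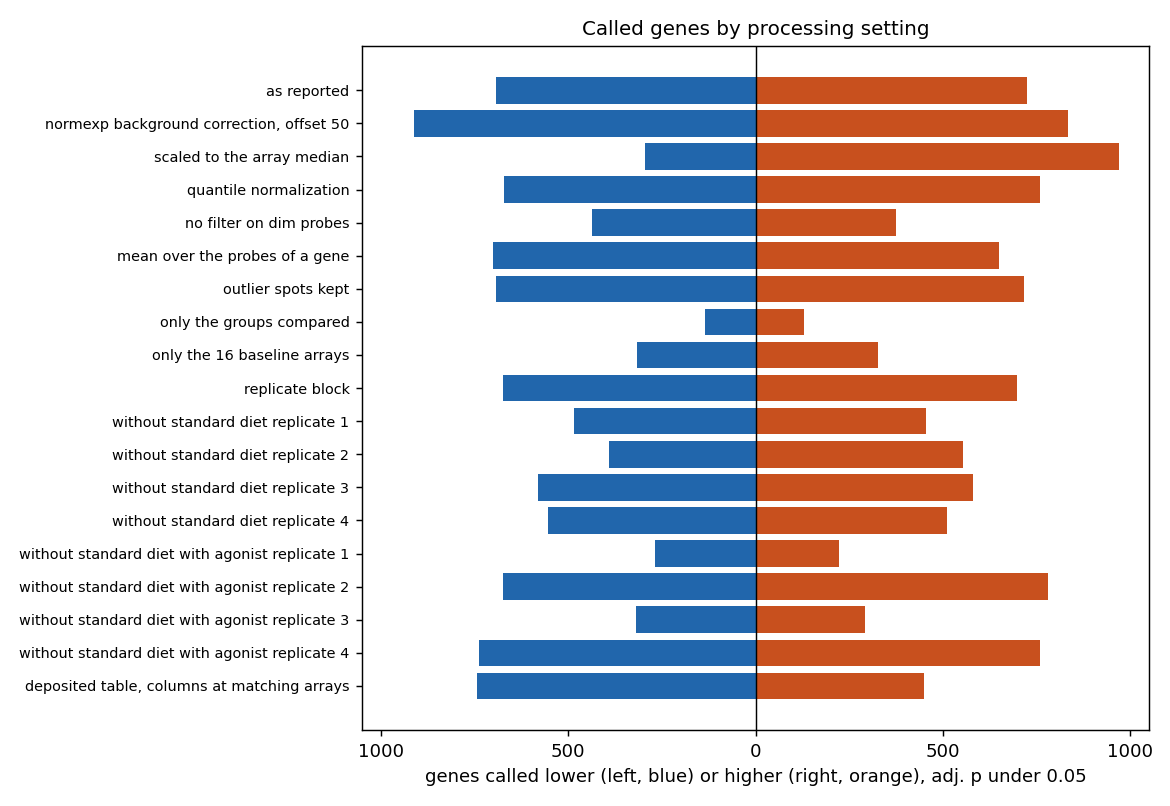
Number of genes called higher (orange, to the right) and lower (blue, to the left) with agonist at an adjusted p under 0.05, for the reported setting and each alternative (vertical axis). The reported setting gives 724 and 692, the 8 arrays compared alone give 128 and 136, and scaling to the array median gives 970 and 295.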

How the data were processed

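Liver RNA was isolated with Trizol, cleaned on RNeasy columns and labelled with Cy3, per the labels' protocols. Per the file headers, Feature Extraction 10.7.3.1 quantified the arrays; the scanner files as deposited give background-subtracted spot intensity on a linear scale. The authors' processed table, as deposited, is in log2 units, judged from its values, and the submitters' processing notes name limma with no version. There, 16 of all 32 columns, 4 of them used here, match arrays of another group best (MCD diet for agonist on standard diet, and the reverse); which record is right cannot be settled, and the table served as an alternative only.

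From the scanner files, log2 processed signal minus the array's 75th percentile was computed in R 4.3.3, leaving out control and outlier spots and averaging repeated spots. Probes were tested where some group had all 4 arrays well above background, and a gene was measured by its brightest probe, which left 21710 genes. One limma 3.58.1 fit over the 8 groups gave each contrast, with Benjamini-Hochberg adjusted p under 0.05 as the threshold. Symbols were updated through RefSeq GRCm38.p6, with 15222 tested genes named by it and 6488 keeping the file's name; probe positions are mm9 as deposited, and exons or UTRs were not looked up. Named genes are the 14 largest rises and falls with no overlap between groups, up to 6 members of each list by adjusted p, and a set of focal genes, of which not all are printed. The members and lists were chosen with earlier results of these data known. Replicate numbers did not pair the livers, so no block was used. The procedure was tested on simulated data.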

Additional observations from a re-analysis of the deposited data

Results flagged for a closer look

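The printed genes gave 156 groups of values, of which the agonist group of Cyp2a4, with a missing array, could not be checked. In 6 groups 1 liver lay far from the other livers of its group, where chance gives about 5%. In the standard diet group these were Apoa4 in liver 2 (1.28), C1qa in liver 2 (2.06) and Mrgprg in liver 1 (-2.40). In the agonist group they were Cebpd in liver 1 (5.87), Cyp2b10 in liver 1 (2.16) and Dbp in liver 4 (4.80).

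By the interaction term of limma, the agonist effect differed between diets at baseline for 2400 genes. It differed between baseline and the time after hepatectomy for 59. All genes named below passed the threshold at baseline on standard diet, and those arrays enter both differences. Differences of the sign opposite to the baseline change are therefore favoured by the choice of genes, and these values are a description. Given as the MCD diet effect minus the standard diet effect on the log2 scale, the acute phase and metallothionein genes differed by -3.23 for Mt1, -4.22 for Mt2, -5.18 for Lcn2, -3.70 for Saa1, -4.12 for Saa2 and -2.55 for Apcs. For immune and macrophage genes the differences were -4.25 for Prtn3, -2.49 for Tifa, -4.04 for Vsig4, -3.44 for Adgre1, -3.44 for C1qa, -3.06 for Timd4, -2.73 for Clec4f, -2.89 for Cd5l, -3.83 for Ctss and -3.28 for H2-Aa. Interferon-stimulated genes differed by -3.38 for Mx1, -1.89 for Rtp4, -2.78 for Gbp3 and -1.88 for Ifi47. The clock genes had differences of the other sign, 4.18 for Nr1d1, 4.45 for Dbp and 2.46 for Hlf. Metabolic genes differed by -3.70 for Asns, -2.52 for Igfbp1, 2.21 for Cited2, 4.87 for Ppargc1b, 2.35 for Srebf1, 3.59 for Hsd17b6, 2.28 for Gstt2, 2.10 for Nr1i3, 3.59 for Cyp2b10 and 1.49 for Abcc3.

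Given as the effect after hepatectomy minus the baseline effect, differences were -5.58 for Saa1, -5.67 for Saa2, -4.88 for Prtn3, -2.98 for Tifa, -3.32 for Mx1, -2.26 for Rtp4 and -2.90 for Ifi47. They were 4.36 for Nr1d1, 3.55 for Ppargc1b, 2.07 for Gstt2, 4.90 for Cyp2b10, 2.55 for Cyp2a4, 2.67 for Cyp3a41b and 1.68 for Abcc3.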

How the results depend on the processing

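No called gene among the 120 that the naming rule allows changed direction under 18 alternatives (all but the deposited table as labelled). Single probes were not among these alternatives, and of 412 called genes with more than 1 tested probe, 289 had all probes in 1 direction. Counts moved. For the agonist on standard diet, 1416 genes (724 higher, 692 lower) became 812 (375 and 437) with no filter on dim probes, 264 (128 and 136) with only the groups compared, 644 (327 and 317) with the 16 baseline arrays, and 295 lower with median scaling. Fitted on the 16 baseline arrays, the authors' deposited table gave 450 higher with columns placed at the arrays they match. With columns as labelled it gave 4193 (2129 and 2064). Leaving out single arrays gave 490 to 1496 genes, 222 to 781 higher and 268 to 738 lower. The 2897 genes of the MCD diet became 6858 with normexp correction, 5419 with no filter and 1462 to 3209 without single arrays, and the 2400 of the diet interaction 1773 to 2721. After hepatectomy the 2 genes became 0 with normexp, 1 each with quantile normalization, no filter, the mean over probes or outlier spots kept, and 1 to 7 without single arrays. The 59 genes of the hepatectomy interaction became 95 with normexp, 39 with median scaling, 10 with no filter, 8 with only the groups compared and 6 to 154 without single arrays. In the cases of 0 to 2 genes the cause was not tested.

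Pck1, not called, changed sign to 0.23 with normexp and 0.33 with the deposited table placed at matching arrays, and ran from -0.53 to 0.12 without single arrays; Fgf21, not called either, ran from -0.10 to 1.75. The replicate number as a block gave 1373 genes; same-numbered livers correlated at -0.02, -0.07, 0.13 and 0.09 in their deviations, so the numbers do not pair the livers. No fit with slide as a block was possible, each group lying on 1 slide. For probes near background, differences are bounded by the signal of the dim group.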
